A study of Homo sapiens with 36 samples.

Results

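To compare where the promoter mark H3K4me3 sits in lung cancer cells and in non-cancerous bronchial cells, every H3K4me3 peak of A549 and BEAS-2B (B2B) cells on the autosomes and the X and Y chromosomes was assigned to genes. A549 is a lung adenocarcinoma line, and B2B is an immortalised, non-cancerous bronchial epithelial line. No treatment was given to either line for these samples. A549 held 32801 H3K4me3 peaks and B2B held 26112, together 58913 of the 475211 peaks in the 16 peak lists of the study, which mapped 36 chromatin immunoprecipitation (ChIP-seq) and input samples. The mark was measured in 4 samples, 2 replicates per line, which the authors merged before calling peaks. Each line is therefore 1 pooled list with no replicate error, no test between the lines was possible, and the Wilson 95% intervals beside shares hold counting error alone. Each group is also a single cell line, so that a difference between the lines cannot be told apart from a difference between cancerous and non-cancerous cells. A gene was called marked in a line if a peak of that line lay within 1 kb of any of its annotated start sites, and genes fell into the classes A549 only, both, B2B only and neither.

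H3K4me3 is the trimethylated form of lysine 4 of histone H3. It is written at gene starts by the SET1 and MLL (KMT2) methyltransferase complexes, removed by KDM5 demethylases and read by proteins such as TAF3 and ING2. Nucleosomes at CpG-rich promoters carry it whether the gene is strongly or weakly transcribed, partly because the CXXC1 subunit of the SET1 complex binds unmethylated CpG, whereas genes with CpG-poor promoters usually carry it only in the cell types that use them. Promoters silenced by DNA methylation lack the mark, and those held by Polycomb can carry it together with the repressive H3K27me3.

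The stretches below are the 250 bases upstream of the start site of 7 genes taken as examples from the classes (RefSeq, GRCh38.p14, 5′ to 3′ on the strand of the gene), with each CpG in capitals. RAD21L1, ONECUT1 and SLC17A7 were marked in A549 only, MCTS2, ZNF429 and CDKN2B in B2B only, and RPS6 in both lines. They were picked among the named genes whose stretch holds no annotated exon.
RAD21L1, chr20:1225794-1226043, plus strand: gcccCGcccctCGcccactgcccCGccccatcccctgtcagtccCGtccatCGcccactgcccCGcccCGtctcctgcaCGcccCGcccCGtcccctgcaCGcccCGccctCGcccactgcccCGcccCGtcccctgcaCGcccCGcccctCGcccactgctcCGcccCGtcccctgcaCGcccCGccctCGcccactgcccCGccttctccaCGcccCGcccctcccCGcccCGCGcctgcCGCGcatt
ONECUT1, chr15:52790337-52790586, minus strand: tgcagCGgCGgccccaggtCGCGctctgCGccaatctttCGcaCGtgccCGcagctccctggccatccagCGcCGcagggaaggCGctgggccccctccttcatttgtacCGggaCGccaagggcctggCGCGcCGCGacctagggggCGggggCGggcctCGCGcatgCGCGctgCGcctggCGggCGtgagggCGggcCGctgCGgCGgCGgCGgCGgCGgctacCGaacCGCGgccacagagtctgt
SLC17A7, chr19:49441528-49441777, minus strand: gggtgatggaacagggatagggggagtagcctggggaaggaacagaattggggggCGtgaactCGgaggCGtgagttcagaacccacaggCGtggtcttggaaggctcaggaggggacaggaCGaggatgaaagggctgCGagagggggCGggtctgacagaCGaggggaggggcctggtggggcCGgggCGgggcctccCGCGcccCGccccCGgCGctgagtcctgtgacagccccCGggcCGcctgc
MCTS2, chr20:31547129-31547378, plus strand: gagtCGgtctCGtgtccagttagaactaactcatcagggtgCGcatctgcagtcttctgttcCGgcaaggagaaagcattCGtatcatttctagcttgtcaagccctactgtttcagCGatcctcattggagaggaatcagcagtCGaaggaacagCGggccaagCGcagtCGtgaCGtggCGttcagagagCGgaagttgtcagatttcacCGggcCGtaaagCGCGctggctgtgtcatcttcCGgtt
ZNF429, chr19:21505352-21505601, plus strand: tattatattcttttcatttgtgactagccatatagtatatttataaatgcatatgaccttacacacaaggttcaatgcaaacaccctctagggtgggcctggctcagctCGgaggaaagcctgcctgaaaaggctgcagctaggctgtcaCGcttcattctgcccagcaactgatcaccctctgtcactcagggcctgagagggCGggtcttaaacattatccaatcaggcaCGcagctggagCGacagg
CDKN2B, chr9:22009306-22009555, minus strand: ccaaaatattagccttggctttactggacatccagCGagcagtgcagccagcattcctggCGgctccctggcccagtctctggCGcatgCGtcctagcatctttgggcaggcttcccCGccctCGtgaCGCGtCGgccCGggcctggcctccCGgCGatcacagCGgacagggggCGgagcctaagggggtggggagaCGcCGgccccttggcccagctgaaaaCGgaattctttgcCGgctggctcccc
RPS6, chr9:19380237-19380486, minus strand: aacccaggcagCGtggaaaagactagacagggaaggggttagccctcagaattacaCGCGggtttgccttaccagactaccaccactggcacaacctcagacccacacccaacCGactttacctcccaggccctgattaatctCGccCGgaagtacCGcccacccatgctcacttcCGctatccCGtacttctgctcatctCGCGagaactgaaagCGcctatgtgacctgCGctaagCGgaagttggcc
The stretch of ONECUT1 held 37 CpG and that of RAD21L1 held 31, counts that 5.02% and 13.7% of promoters reached. ZNF429 held 5, which 78.0% of promoters reached, SLC17A7 held 17, MCTS2 and CDKN2B held 18 each, and RPS6 held 14. Over the 21613 RefSeq promoters of 15345 coding genes matched by symbol, the median was 17 CpG per 250 bases, with quartiles of 5 and 26. ONECUT1 and RAD21L1 therefore lay above the upper quartile of promoters and ZNF429 close to the lower one, while SLC17A7, MCTS2, CDKN2B and RPS6 lay near the middle.

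The 2 lists differed in form before any gene was considered. The median peak was 863 bp wide in A549 and 632 bp in B2B, and the peaks covered 41.5 Mb and 21 Mb. In A549, 49.9% of peaks (49.4 to 50.4) lay within 1 kb of a coding start site, 9.16% near another annotated start only and 40.9% far from any. In B2B these shares were 73.6% (73.1 to 74.2), 7.06% and 19.3%. The fold enrichment of a peak is the ratio of the pileup at its summit to the local background of the peak caller, and near coding starts its median was 31.2 in A549 against 3.08 in B2B. Solved from the fold and the p-value of each peak, that background had a median of 1.46 times a low value of its own list (the percentile 1) in A549 and 13.9 times in B2B near coding starts, against 1.39 and 1.65 far from starts. Fold enrichments were therefore not compared between lines. Instead, each gene was ranked within its own line by the deposited −log10 q of its best peak, as a percentile among marked coding genes. The marked genes differ between the lines, so that equal percentiles do not mean equal strength. The number of reads behind the lists is not given in the sources used here.

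The A549 list stopped short of the end of chromosomes 5, 17, 18, 20 and X, with 17, 73, 14, 30 and 6 B2B peaks past its last base there. Past those positions lay 134 coding genes, of which 89 carried a B2B peak and 45 none. They were left out below except where a count is of all genes, and the remaining 19881 coding genes are called scored. The 89 genes therefore cannot be read as lacking the mark in A549. The list may have been limited to the chromosome sizes of another genome build, which was not tested.

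Most promoters were marked in both lines, and nearly all that differed were marked in A549. Of all 20015 protein-coding genes, 2470 or 12.3% (11.9 to 12.8) carried H3K4me3 in A549 only, 11959 or 59.8% (59.1 to 60.4) in both lines, 364 or 1.82% (1.64 to 2.01) in B2B only and 5222 or 26.1% in neither. Among scored genes the shares were 12.4% (12 to 12.9), 60.2%, 1.38% (1.23 to 1.56, 275 genes) and 26.0%. The gene lists below are set against these 4 shares. A549 marked 72.6% of scored genes and B2B 61.5%, and 81.3% (80.7 to 82.0) of the genes marked in either line were marked in both. With the A549 list cut to its strongest peaks so that it held as many as the B2B list, 2340 of all coding genes were marked in A549 only and 400 in B2B only. The part of the higher caller background in B2B was not tested. A best peak shared with another coding gene was found at 25.3% of the genes marked in A549 and 26.9% of those marked in B2B, so that genes are not independent.

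**Figure D1:**
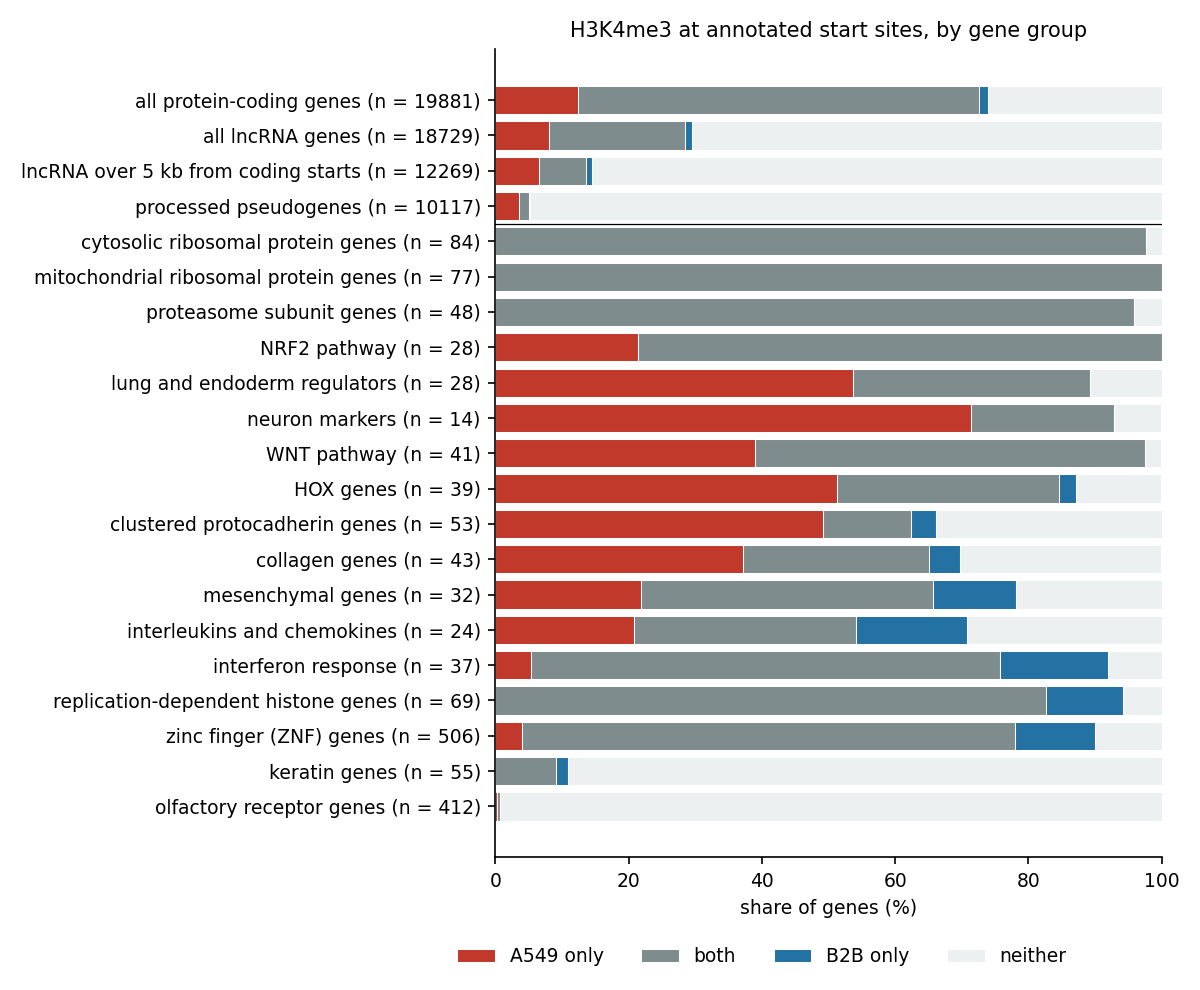
Stacked horizontal bars giving the percent of scored genes marked by H3K4me3 within 1 kb of a start site in A549 only, both lines, B2B only or neither, for all coding genes and for gene groups, with the number of genes beside each name. Cytosolic and mitochondrial ribosomal protein genes are nearly all in the class of both lines, neuron markers, lung and endoderm regulators, HOX and protocadherin genes show wide A549-only bars (49.1% to 71.4%), and interferon, histone and zinc finger genes show B2B-only bars of 16.2%, 11.6% and 11.9%.

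Promoters of one line alone carried weaker peaks than shared ones. In A549 the median −log10 q was 90.1 (11.9th percentile, median width 1260 bp) at A549-only genes against 213 (57.6th percentile, 2310 bp) at shared genes. In B2B it was 15.3 (19.1st percentile, 652 bp) at B2B-only genes against 32.0 (50.6th percentile, 1060 bp). Most of these genes had no called peak of the other line nearby, since 85.8% of A549-only genes had no B2B peak within 10 kb and 76.0% of B2B-only genes had no A549 peak within 10 kb. Signal at these start sites under the threshold of the caller was not tested. Peaks at or above the 50th percentile of their own line were found at 186 A549-only genes, or 7.53%, and at 67 B2B-only genes, or 24.4%.

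The strongest A549-only promoters belonged to genes of quite different function. KLF11, a Krüppel-like transcription factor, had a peak at chr2:10042741-10044664 (hg38) with a −log10 q of 293, at the 98.2nd percentile of marked genes. Its nearest B2B H3K4me3 peak was 76.2 kb away, although other ChIP targets had peaks at its start in B2B, as given below. TESMIN and RAD21L1, a meiotic cohesin subunit, are germline genes and reached 285 and 282. AP3B2, a neuronal adaptor subunit, and CNTN1, a neuronal adhesion molecule, reached 278 and 271. MALL, a membrane raft protein of the MAL family, and ST3GAL1, which adds sialic acid to glycans, both reached 273. PPP1R14A, an inhibitor of myosin phosphatase, reached 271. ANO5, an anoctamin expressed in muscle, and IRX5, an Iroquois homeobox factor, both reached 264, and their nearest B2B peaks lay 355 and 577 kb away. Each of these 10 genes, which ranked first among 2119 without a B2B peak within 10 kb, stood above the 90th percentile of its line.

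SPARC, a secreted collagen-binding glycoprotein, led the B2B-only promoters. Its peak at chr5:151684007-151686948 had a −log10 q of 127, at the 98.7th percentile of B2B, and the nearest A549 peak was 70.4 kb away. SLFN12, a Schlafen family member, followed with 105. GBP3 and GBP1, interferon-inducible guanylate-binding proteins that neighbour each other on chromosome 1, had 93.5 and 72.7. CDKN2A, a cell-cycle inhibitor gene, had 88.8 at chr9:21992754-21994312, near the upstream end of the gene. This is the best peak over any of its start sites and does not show which product's start was marked. MCTS2, a retrotransposed gene on chromosome 20, had 73.4. The other 4 of the leading 10, chosen among 209 genes, were the zinc finger genes ZNF736 at 84.8, ZNF429 at 71.7, ZSCAN23 at 69.8 and ZNF793 at 66.4. Zinc finger genes and interferon-inducible GBP genes were thus 6 of the leading 10.

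Zinc finger (ZNF) genes encode DNA-binding proteins, many of which carry a KRAB domain and repress transposable elements, and they lie in clusters on chromosome 19. Of 506 scored ZNF genes, 20 were marked in A549 only, 375 in both lines, 60 (11.9%) in B2B only and 51 in neither. They made up 21.8% of B2B-only genes and 2.55% of scored coding genes. The B2B-only members concentrated on chromosome 19, where they were 55 of 246 ZNF genes (22.4%), against 5 of 260 (1.92%) on other chromosomes. Of the other coding genes of chromosome 19, 15 of 1230 were marked in B2B only (1.22%). Outside the ZNF genes, 215 of 19375 coding genes (1.11%) were marked in B2B only.

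Along chromosome 19 the B2B-only ZNF genes lay in some clusters and not in others. Between 10 and 15 Mb they were 14 of 26 (53.8%), between 15 and 25 Mb 15 of 37 (40.5%) and between 50 and 55 Mb 15 of 40 (37.5%). Between 40 and 50 Mb there were 0 of 30, and between 55 and 59 Mb 4 of 59. After ZNF736, ZNF429 and ZNF793, the strongest were ZNF345 and ZNF790, both at a −log10 q of 62.2, ZNF28 at 60.2, ZNF649 at 52.5 and ZNF91, a repressor of retroelements, at 52.2. The A549-only ZNF genes were led by ZNF354A at 261, ZNF467 at 236, ZNF423, a cofactor of SMAD and retinoid signalling, at 197 and ZNF704 at 181. The start sites of B2B-only ZNF genes had a median CpG observed-to-expected ratio of 0.651, against 0.751 at those marked in both lines and 0.845 at those marked in A549 only. The B2B-only count lay between 57 and 64 under the settings tried. The A549-only count was less stable, as the A549-only minus the B2B-only count moved from -40 to -11 with a −log10 q of at least 10.

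**Figure D2:**
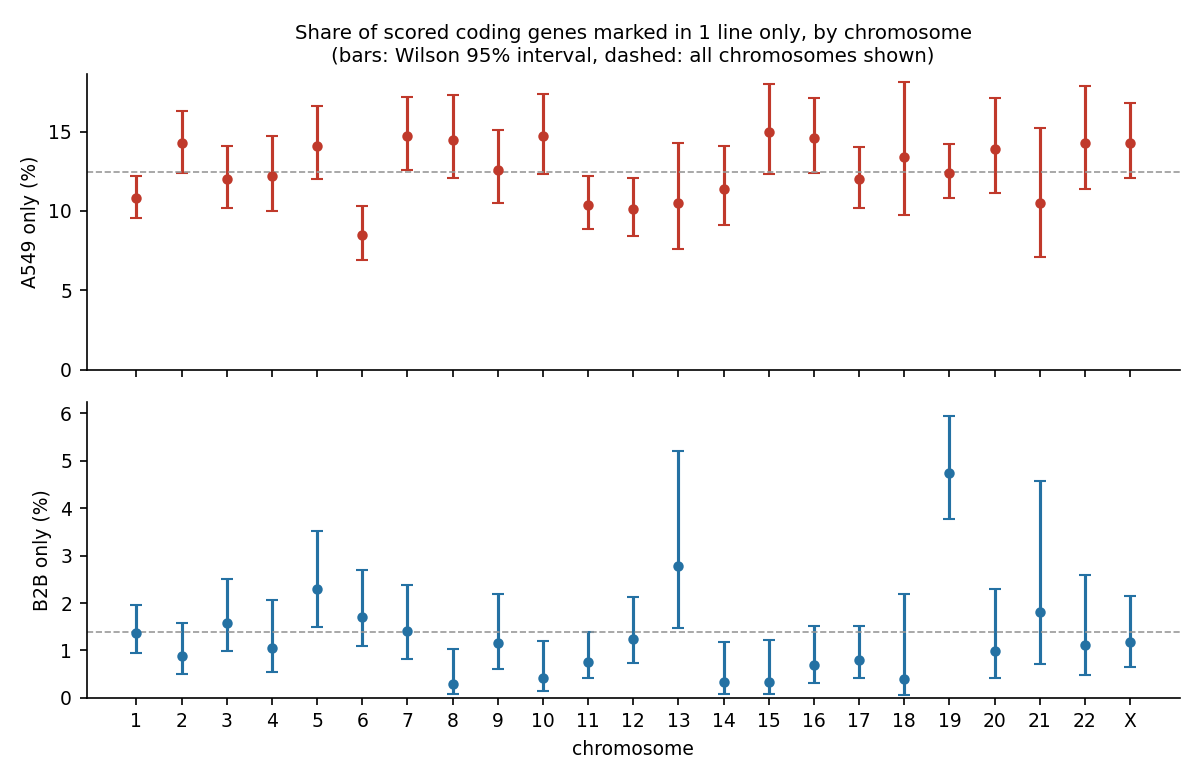
Percent of scored coding genes marked in A549 only (upper panel) and in B2B only (lower panel) on each of chromosomes 1 to 22 and X, as points with Wilson 95% intervals, with the share over all of them dashed. Chromosome 19 stands highest for B2B only at 4.74%, while the others lie between 0.285% and 2.79%, and the A549-only share runs from 8.47% on chromosome 6 to 15% on chromosome 15.

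By chromosome, the B2B-only share was 4.74% (3.77 to 5.95) on chromosome 19 and between 0.285% and 2.79% on the other chromosomes. The A549-only share varied less, between 8.47% and 15%.

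Both lines carried the mark at some general epithelial genes, and A549 carried it at more genes of lung and endoderm identity. EPCAM, an epithelial adhesion molecule, was marked with a −log10 q of 193 in A549 and 14.1 in B2B, CDH1, which encodes E-cadherin, with 167 and 6.1, and KRT8, a simple-epithelium keratin, with 229 and 77.3. The CDH1 peak of B2B was weak, under the lower quartile of all B2B peaks, 8.63. KRT7 and KRT18 were marked in both lines, and KRT19 in neither. Of 30 epithelial junction and keratin genes, 13 were marked in both lines, 9 in A549 only, led by CDS1 at 170, the tight-junction gene MARVELD3 at 169, the polarity gene LLGL2 at 163 and the desmosomal gene DSC2 at 161, and 1 in B2B only. PTPRC, CD3E and SPI1 of blood, PECAM1 and CDH5 of endothelium, and ALB and APOA1 of hepatocytes, which mark other cells, were all unmarked in both lines. In the full lists, 12 of 15 blood, 8 of 10 endothelial and 13 of 14 hepatocyte genes were marked in neither line. In such bulk samples, a mark in fewer cells cannot be told apart from less of the mark in every cell.

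Of 28 lung and endoderm transcription factors, 15 (53.6%) were marked in A549 only, 10 in both lines, 0 in B2B only and 3 in neither. The A549-only members were led by the hepatocyte nuclear factor family member ONECUT1 at a −log10 q of 234, the pioneer factor FOXA2 at 226, CEBPA at 199, the epithelial ETS factor ELF3 at 164, the ciliated-cell regulator FOXJ1 at 121, OVOL2 at 119 and the endoderm factor SOX17 at 110. NKX2-1, the lineage factor of alveolar cells, was marked in both lines, with 83.6 in A549 and 3.35 in B2B. That B2B peak lay close to the lowest −log10 q of its list, 2.0, and under the alternative cut of 5. FOXA1, GATA6, SOX9, CEBPB and GRHL1 were also marked in both. The members marked in A549 had a median percentile of 20.8, so that most of these promoters were weak among A549 promoters. Of 24 surfactant and secretory genes, 8 were marked in A549 only, among them the mucin gene MUC1 at 155, the surfactant genes SFTPD at 140 and SFTPC at 96.8, and LAMP3 at 107. ABCA3, the lipid transporter of lamellar bodies, was marked in both, and 15 in neither, SFTPB and SCGB1A1 among them. Of 22 basal airway genes, 5 were marked in A549 only, including NGFR at 114 and the basal-cell regulator TP63 at 12.6, 6 in both and 10 in neither, KRT5 and KRT14 among them. KRT17 at 15.1 was the 1 member marked in B2B only. TP63, KRT5 and KRT14, which define basal airway cells, were thus unmarked in B2B.

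Several families of developmental genes also held A549-only promoters at 3 or more times the share of all coding genes. Of 39 HOX genes, which set position along the body axis, 20 (51.3%) were marked in A549 only, 13 in both, 1 in B2B only (HOXB4 at 14.4) and 5 in neither. HOXA3 at a −log10 q of 231, HOXB9 at 199 and HOXD1 at 185 were the strongest. The clusters differed, with 7 A549-only and 3 shared genes in HOXA, 3 and 5 in HOXB, 3 and 5 in HOXC, and 7 and 0 in HOXD. Of 53 clustered protocadherins, adhesion molecules that give neurons their identity, 26 (49.1%) were marked in A549 only. These included 14 of the 15 PCDHA genes, led by PCDHAC1 at 189 and PCDHA4 at 173, but 4 of the 16 PCDHB genes and 8 of the 22 PCDHG genes. Of the others, 7 were marked in both lines, 2 (PCDHGA11 and PCDHGB2) in B2B only and 18 in neither. Neighbouring genes of these clusters can share a peak, so that their counts are not independent.

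Of 14 neuron markers, 10 (71.4%) were marked in A549 only, 3 (SYT1, MAP2 and TUBB3) in both lines and 1, DCX, in neither. SLC17A7, a vesicular glutamate transporter, had a −log10 q of 311, above all of the named genes before it, but its nearest B2B peak lay 8.37 kb away. SNAP25, a synaptic fusion protein, had 246, RBFOX3 had 156, the synaptic vesicle protein SYP 140, and the neurofilament genes NEFL and NEFM 129 and 85.2. GAD1, which makes the transmitter GABA, had 82.4 and STMN2 65.3. The 13 members marked in A549 had a median percentile of 20.2, so that SLC17A7 and SNAP25 were exceptions in strength. The part of any other cell type in these values was not tested. Of 41 genes of the WNT pathway, 16 (39.0%) were marked in A549 only, 24 in both, 0 in B2B only and 1 in neither. They included the ligands WNT11 at 177, WNT3 at 176, WNT7B at 133, WNT6 at 103 and WNT4 at 95.8, the receptor FZD8 at 194, the secreted inhibitor SFRP4 at 207 and the agonist RSPO3 at 177.

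Some genes of mesenchymal cells and of the matrix were marked in A549 only and others in B2B only. VIM, an intermediate filament protein, was marked in both lines with a −log10 q of 239 in A549 and 36.4 in B2B, as was FN1, which encodes fibronectin, with 243 and 55.9. Of 32 mesenchymal genes, 14 were marked in both, 7 in A549 only, among them the collagen VI genes COL6A2 at 151 and COL6A1 at 77.7, S100A4 at 68.8 and the growth factor receptor PDGFRA at 64.6. In B2B only, 4 were marked, namely SPARC at 127, PDGFRB at 19, THY1 at 13.2 and COL3A1 at 4.18. The marked members had a median percentile of 14.8 in A549 and 42.1 in B2B. Of 43 collagen genes, 16 were marked in A549 only, led by the divergently transcribed pair COL4A3 and COL4A4 at 226 and by COL18A1 at 190, 12 in both, and 2 (COL11A1 at 18.5 and COL3A1) in B2B only. Of 20 genes of matrix proteases and the urokinase system, 11 were marked in both lines, 6 in neither, 2 in A549 only, a share near that of all scored genes (12.4%), and 1 in B2B only, which was MMP14, a membrane-bound collagenase, at 53.1.

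Of 24 interleukins and chemokines, 8 were marked in both lines, 7 in neither and 9 in one line alone. The 5 marked in A549 only were CXCL5 at a −log10 q of 83.9, CCL20 at 74.1, CXCL8 at 17.6, CXCL12 at 15.1 and IL32 at 10.2. The 4 in B2B only were IL6 at 23.9, LIF at 13.1, CXCL6 at 3.77 and IL1A at 3.45, of which the last pair lay close to the lowest −log10 q of the list, 2.0.

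Interferon-inducible genes also had B2B-only promoters. Of 37, 6 (16.2%) were marked in B2B only, against 1.38% of scored coding genes, 26 in both, 2 in A549 only, led by the antiviral enzyme RSAD2 at a −log10 q of 161, and 3 in neither. The 6 were GBP1 at 72.7, IFI44L at 14.9, the double-stranded RNA sensor OAS2 at 12.6, the DNA-sensing adaptor STING1 at 7.45, the viral tether BST2 at 7.4 and GBP2 at 4.68. STING1, BST2 and GBP2 lay under the lower quartile of all B2B peaks, 8.63. The number of B2B-only members was between 4 and 8 under the settings tried. The A549-only minus the B2B-only count was less stable, and moved from -4 to -1 with a −log10 q of at least 10. It was -2 with a distance of 3 kb and -2 with no peak of the other line within 5 kb. Members marked in a line had a median percentile of 19.1 in A549 and 59.3 in B2B, where all marked coding genes have 50 by construction. Of 22 HLA and antigen-presentation genes, 17 were marked in both lines, 2 in A549 only, 0 in B2B only and 3 in neither. The A549-only share, 9.09%, was below the 12.4% of all scored coding genes. The 19 members marked in A549 had a median percentile of 27.4 there, and the 17 marked in B2B had 65.6. B2M, the light chain of HLA class I, stood at the 42.6th percentile in A549 and the 96.3rd in B2B. The peptide transporter TAP1 had a −log10 q of 168 in A549 and 45.6 in B2B, and the immunoproteasome subunit PSMB9 168 and 72.7, at the 67.8th and 86.5th percentiles of B2B.

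**Figure D3:**
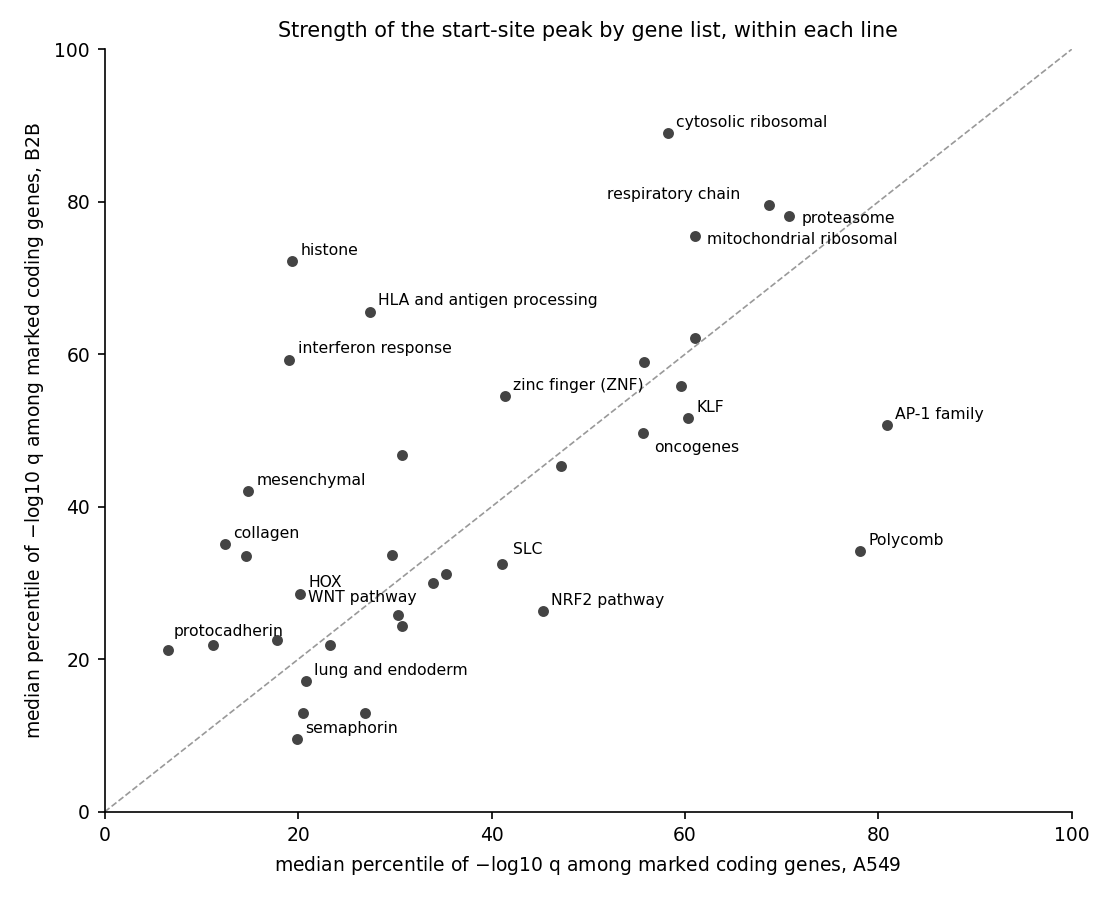
Each point is a gene group, placed by the median within-line percentile of the best peak of its marked genes in A549 (horizontal) and B2B (vertical), where all marked coding genes of a line have a median of 50 and the dashed line is equality. Interferon, HLA, histone and mesenchymal genes rank higher in B2B than in A549, whereas Polycomb, AP-1 and NRF2 genes rank higher in A549. The marked genes of a group can differ between lines. Genes marked in both lines have medians of 57.6 in A549 and 50.6 in B2B, so that equality is not a neutral line for them.

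Histone genes, which are transcribed in S phase from compact clusters, ranked at a median percentile of 19.4 in A549 and 72.2 in B2B. Of 69, 57 were marked in both lines, 0 in A549 only, 8 (11.6%) in B2B only and 4 in neither. H2AC7 and H2BC7 both had a −log10 q of 60.8 in B2B, and H2BC8 had 36.9. The B2B-only count was 4 with a distance of 3 kb, 19 when the summit had to lie within 1 kb, and 2 when the other line could have no peak within 5 kb, so that the class of these genes depended on the rule.

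Targets of NRF2, the oxidative-stress factor that induces detoxifying enzymes, were 28 scored genes, of which 22 were marked in both lines and 6 (21.4%) in A549 only, against 12.4% of all scored coding genes. The 0 in B2B only is near the 1.38% of all scored genes. The 6 were the export pump ABCC2 at a −log10 q of 167, the aldo-keto reductases AKR1B10 at 154, AKR1C2 at 144 and AKR1C1 at 126, the glutathione peroxidase GPX2 at 47.6, and the aldehyde dehydrogenase ALDH3A1, the weakest of them. NQO1, a quinone reductase, was marked in both lines and stood at the 86.6th percentile in A549 and the 47.1st in B2B, but TXNRD1, a thioredoxin reductase, stood at 51.2 and 96.6. Of 24 aldehyde dehydrogenase and aryl hydrocarbon receptor genes, 7 were marked in A549 only, including the retinoic acid enzymes ALDH1A3 at 165, ALDH1A2 at 158 and ALDH1A1 at 99.4 and the vitamin D hydroxylase CYP24A1 at 161. Of 35 nuclear receptors, 24 were marked in both and 4 in A549 only, which were PPARG at 227, NR0B1 at 193, NR5A2 at 170 and PGR at 26.0. Their A549-only share, 11.4%, was near that of all scored coding genes.

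Oncogenes had an A549-only share close to that of all coding genes. Of 610 scored oncogenes, 75 (12.3%) were marked in A549 only, against 12.4% of all coding genes, 481 (78.9%) in both, 6 (0.984%) in B2B only and 48 in neither. Of 41 receptor tyrosine kinases and ligands, 12 were marked in A549 only, among them the EGFR ligand TGFA at a −log10 q of 219, FGFR4 at 207, NTRK3 at 188 and FGFR2 at 160. Of 28 cell-cycle and p53-pathway genes, 26 were marked in both lines, and the cyclin-dependent kinase inhibitor CDKN1C at 158 and the cyclin CCND2 at 40.1 in A549 only. That A549-only share, 7.14%, was below the 12.4% of all coding genes. At 9p21 the lines differed over a short stretch, since CDKN2A and CDKN2B carried peaks of 88.8 and 50.3 in B2B and none in A549, whereas MTAP, KLHL9 and DMRTA1 around them were marked in both lines. The nearest A549 peaks lay 165 kb from CDKN2A and 201 kb from CDKN2B. Whether the DNA of this stretch is present in A549 was not tested, so that these genes cannot be read as unmarked promoters there.

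Of 7 genes that the study draws as browser tracks, 6 were marked in both lines and POU5F1, a pluripotency factor, in neither. The tracks of HSP90AB1 and SDHAF2 are supplementary, and those of the others are in main figures. PAX7, GOLGA5, GMPS and MSH6, which also have supplementary tracks, were not in this list. The chaperone gene HSP90AB1 had a −log10 q of 199 in A549 (47.5th percentile) and 53.7 in B2B (75.2nd). SDHAF2, an assembly factor of succinate dehydrogenase, had 257 (87.5th) and 59.1 (79.2nd). The kinase genes SRC, EGFR and FGFR1 ranked lower in B2B, with SRC at 208 (53.6th) and 13.5 (15.2nd), EGFR at 224 (65.8th) and 15.7, and FGFR1 at 216 (59.9th) and 8.21 (5.8th). KLF6 had 252 (84.5th) and 37.1 (58.2nd).

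AP-1 subunits were marked in both lines, 13 of 15, with BATF and BATF2 in neither, at a median percentile of 80.9 in A549 and 50.7 in B2B. FOSL1 stood at the 97.6th percentile in A549 and the 29.9th in B2B, and FOS at 96.7 and 75.7. Of 13 Polycomb subunits, 12 were marked in both lines. The median percentile was 78.1 over the 13 marked in A549 and 34.2 over the 12 marked in B2B. EZH2, the H3K27 methyltransferase, stood at 81.9 and 11.1, and CBX2, a chromodomain subunit, was marked in A549 only, with a −log10 q of 229.

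Genes that every cell uses were marked in both lines almost without exception. All 77 mitochondrial ribosomal protein genes and 82 of 84 cytosolic ones were marked in both lines, with median percentiles of 61.0 and 58.2 in A549 and 75.5 and 89.0 in B2B. Because they ranked high in B2B, these genes cannot show whether weaker promoters were missed in that list. The 16 genes of the H3K4 methyltransferase complexes and the 10 H3K4 demethylases and readers were all marked in both lines, so that the machinery of the mark itself did not differ in class. At the other end, 94 of 94 keratin-associated protein genes and 409 of 412 olfactory receptor genes were marked in neither line.

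Long noncoding RNA (lncRNA) genes were marked less often, and less often in both lines. Of all 18858, 1520 (8.06%) were marked in A549 only, 3813 (20.2%) in both, 201 (1.07%) in B2B only and 70.7% in neither. Many start beside a coding gene and share its peak. Of the 12269 scored lncRNA genes with no coding start site within 5 kb, 796 (6.49%) were marked in A549 only, 871 (7.1%) in both 111 (0.905%) in B2B only and 85.5% in neither. The share marked in both, of those marked in either, was 49.0% (46.7 to 51.3) here against 81.3% (80.7 to 82.0) for coding genes. For 10117 processed pseudogenes it was 28.6% (24.9 to 32.6), with 355 (3.51%) marked in A549 only, 150 (1.48%) in both, 19 (0.188%) in B2B only and 94.8% in neither.

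The classes differed in the base composition of their start sites, which the rule did not use. In 500 bp to each side of the main start site, the median CpG observed-to-expected ratio was 0.79 (quartiles 0.699 and 0.871) for genes marked in both lines, 0.737 (0.556 and 0.838) for A549 only, 0.569 (0.356 and 0.687) for B2B only and 0.255 (0.171 and 0.413) for neither. CpG-rich start sites, with a ratio of at least 0.6 and a GC content of at least 55%, made up 80.4%, 67.4%, 33.5% and 10.2% of these classes. Read the other way, 80.8% of 11894 CpG-rich start sites were marked in both lines, 14.0% in A549 only and 0.773% (0.631 to 0.948) in B2B only. Of 3058 intermediate start sites, 57.8%, 12% and 3.27% (2.7 to 3.96) fell in these classes, and of 4929 CpG-poor ones, with a ratio under 0.4, 11.8%, 8.87% and 1.68% (1.36 to 2.08). Over the 250 bases upstream the median was 19 CpG for A549-only, 21 for shared, 10 for B2B-only and 3 for unmarked genes. The promoters printed above do not follow these medians, as the B2B-only MCTS2 and CDKN2B held 18 each and the shared RPS6 held 14.

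**Figure D4:**
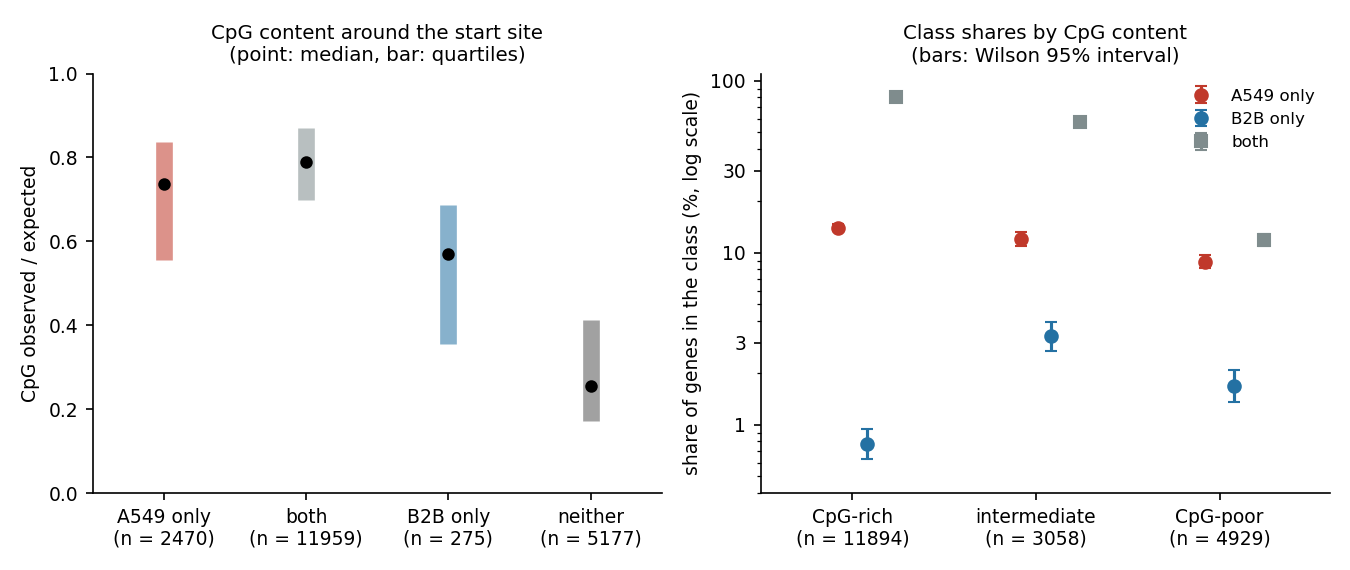
CpG observed-to-expected ratio in 500 bp to each side of the main start site, as the median (point) and quartiles (bar) for the 4 classes of scored coding genes (left), and the percent of CpG-rich, intermediate and CpG-poor start sites in 3 classes on a log axis with Wilson 95% intervals (right). Genes marked in both lines and in A549 only lie high, at medians of 0.79 and 0.737, B2B-only genes at 0.569 and unmarked genes at 0.255, and the B2B-only share is highest, at 3.27%, for intermediate start sites.

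The other ChIP targets followed the H3K4me3 classes to different degrees. They were read on chromosomes 1 to 12, which the lists of pol II, H3K27ac and Med1 cover in both lines, and within 1 kb of a start site. RNA polymerase II (pol II), the enzyme that transcribes these genes, was found at 58.8% (56.4 to 61.3) of 1521 A549-only genes in A549 and at 5.06% (4.07 to 6.28) in B2B, where 67.0% and 50.2% of all coding genes carried it. At the 152 B2B-only genes it was found at 1.97% (0.673 to 5.64) in A549 and 44.1% (36.4 to 52.0) in B2B. At 7642 shared genes the shares were 96.6% and 80.0%. The pol II lists were of unequal length on these chromosomes, with 33170 peaks in A549 and 16953 in B2B. The part of that difference in these shares was not tested. H3K27ac, a mark of active promoters and enhancers, was present more widely, at 84.8% of A549-only genes in A549 and 20.3% in B2B, and at 9.21% and 63.8% of B2B-only genes. Its shares over all coding genes were 71.7% and 62.8%.

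Med1, a subunit of the Mediator complex, was found at 25.3% of A549-only genes in A549 and at 20.5% in B2B, with 52.8% and 59.2% of all coding genes. At B2B-only genes it was found at 0 of 152 in A549, which allows a share of up to 2.46% (Wilson), and at 36.2% in B2B. The Jun-family AP-1 subunits, read on all chromosomes, had lists of unequal length, with 28068 JunB peaks in A549 and 8563 in B2B, 35602 and 45047 Jun peaks, and 9639 and 8597 JunD peaks. JunB was found at 15.3% of A549-only genes in A549 and 1.78% in B2B (26.5% and 3.03% of all coding genes), and at 3.27% and 5.45% of B2B-only genes. Jun was found at 17.8% and 8.58% of A549-only genes (31.8% and 16.5% of all), and at 6.55% and 22.9% of B2B-only genes. JunD was found at 6.48% and 1.01% of A549-only genes (15.7% and 1.76% of all), and at 0.364% and 4.0% of B2B-only genes.

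**Figure D5:**
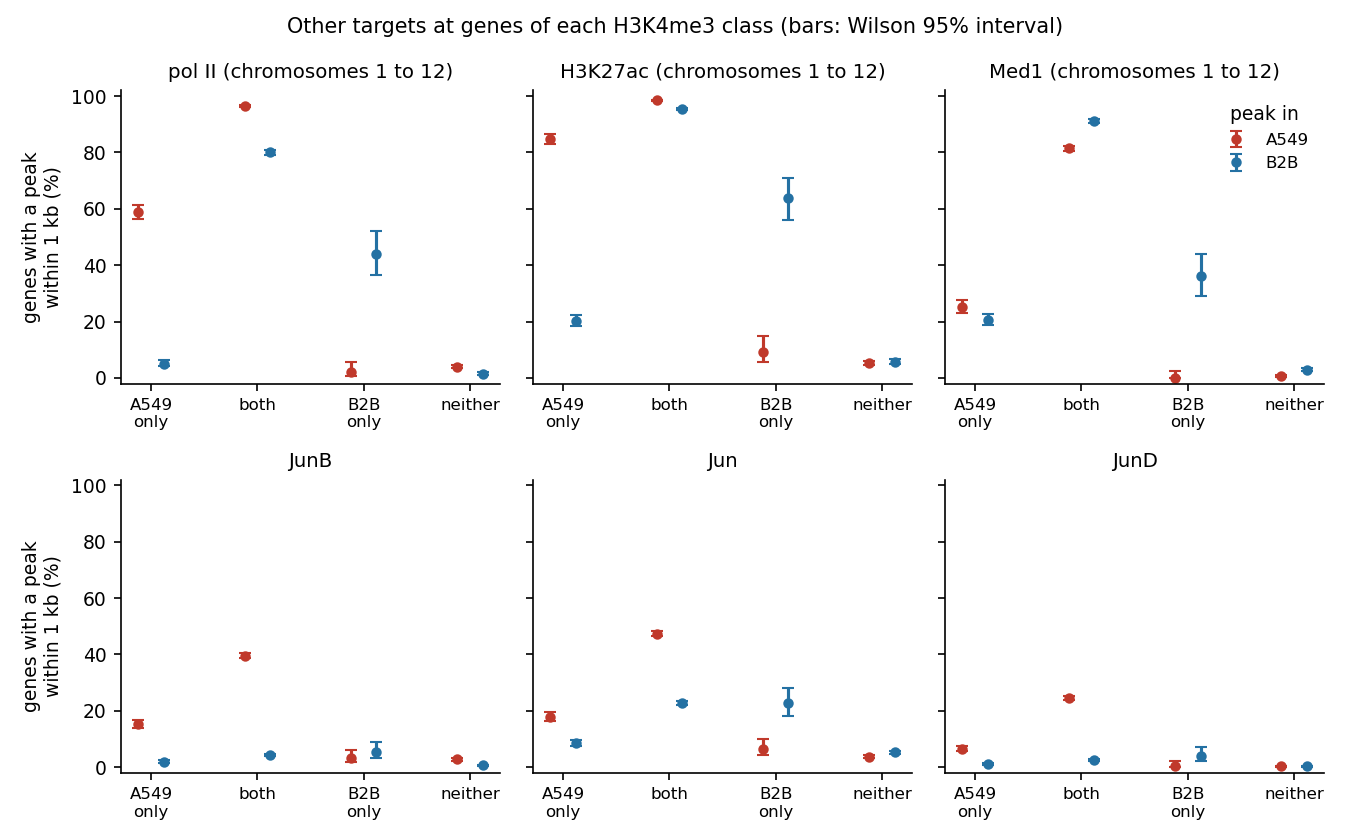
Percent of genes of each H3K4me3 class with a peak of another ChIP target within 1 kb of a start site, in A549 and in B2B, with Wilson 95% intervals. At A549-only genes, pol II is at 58.8% in A549 and 5.06% in B2B, and Med1 at 25.3% and 20.5%. The pol II list is longer in A549, with 33170 peaks against 16953 in B2B on chromosomes 1 to 12.

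Single genes showed how far the other targets moved with the mark. At CDKN2A and CDKN2B, none of the 6 targets had a peak in A549, while both carried pol II, H3K27ac and Med1 in B2B. The presence of these genes in the A549 genome was not tested. SPARC carried all 6 targets in B2B and JunB alone in A549. AKR1C1 and AKR1B10 carried pol II, H3K27ac and Med1 in A549 and no target in B2B. KLF11 was different, since pol II, H3K27ac, Med1 and Jun had peaks in B2B although no H3K4me3 peak was called there. Whether H3K4me3 lay under the threshold of the caller in B2B was not tested. Likewise, CXCL8, which encodes the neutrophil chemokine interleukin 8, carried pol II and Jun in B2B without a called H3K4me3 peak. MALL and CNTN1 carried pol II, H3K27ac and Med1 in A549 and no target in B2B.

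Genes marked in both lines mostly used the same start sites. Start sites of a gene within 500 bp of each other were merged. Of the 11959 shared genes, 10493 (87.7%) had the same starts marked in both lines, 1230 (10.3%) had a start marked in A549 alone, 297 (2.48%) a start marked in B2B alone, and 61 (0.51%) both kinds, 20 of these with no shared start. Ranked by the weaker of the marked starts, the leading genes were SNU13, a spliceosomal protein gene, with a −log10 q of 210 at its A549 start and 54.9 at its B2B start, 8.01 kb apart, and STXBP6, with 85.2 and 45.3 at starts 39.2 kb apart. SYNPO2, an actin-binding protein gene, had 104 and 41.9 at starts 177 kb apart. GNAS, which encodes the stimulatory G protein subunit and has several imprinted promoters, had 217 and 38.3 at starts 6.56 kb apart. EYA1, a developmental phosphatase and coactivator, had 35.1 and 38.3 at starts 191 kb apart. MACF1, a cytoskeletal crosslinker, had 92.4 and 32.5, and EGFLAM, a matrix protein, 80.4 and 32.1, both over 187 kb. PHLDB1 (191 and 29.3), GCNT2 (37.2 and 26.5) and NFATC4 (36.8 and 26.4) completed the 10. No other coding gene starts within 1 kb of these starts, and the number of such genes lay between 61 and 68 under the settings tried.

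The marked domain around shared starts was wider in A549 for most genes. In 5 kb to each side of the main start of 11601 shared genes, the median covered length was 2520 bp in A549 and 1660 bp in B2B, with a median log2 ratio of A549 to B2B of 0.6 (quartiles 0.33 and 0.99), and 10831 genes (93.4%) were wider in A549. Without correction for that median of 0.6, NRF2 targets had a median log2 ratio of 1.91, lung and endoderm factors 1.51 and AP-1 genes 1.12. Other lists were as high, among them basal airway genes at 1.99, HOX genes at 1.52 and KLF genes at 1.26. The ratio was 0.63 for cytosolic ribosomal proteins, of which 0 of 82 were wider in B2B. Interferon genes had 0.09, with 10 of 26 wider in B2B, HLA genes −0.03, with 9 of 15, and mesenchymal genes 0.21, with 5 of 13. These ratios compare lengths called in lists with different background, whose part in them was not tested.

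Against the shift, 768 shared genes (6.62%) were wider in B2B, 79 of them at least 2 times as wide, and those named here were chosen after their values were seen. NNMT, which methylates nicotinamide, was covered over 170 bp in A549 and 4144 bp in B2B, and stood at the 0.194th and 97.6th percentiles. EYA1 was covered over 299 and 4749 bp, COL8A1, a short-chain collagen, over 1493 and 4801 bp, TNC, which encodes the matrix protein tenascin C, over 321 and 3250 bp, and MEIS1, a homeobox cofactor, over 3706 and 7232 bp. TXNIP, an inhibitor of thioredoxin, was covered over 1958 and 4660 bp, with a −log10 q of 83.1 in A549 and 178 in B2B.

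Away from starts, the A549 list held runs of peaks inside a small number of genes, again chosen after their values were seen. PDE4D, a cyclic AMP phosphodiesterase, held 89 A549 and 10 B2B summits, PCDH9, a protocadherin, 55 and 1, THSD7A 43 and 0, ALDH1A1 35 and 0, and BMPR1B, a BMP receptor, 25 and 0. The stretch of chromosome 7 between 11 and 12 Mb, where THSD7A lies, held 46 A549 peaks and 0 B2B peaks, although the median A549 peak far from starts was 337 bp wide with a −log10 q of 9.65. B2B held more summits in NFIB, with 12 in A549 and 22 in B2B, DST, with 13 and 17, and RUNX1, with 10 and 15.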

How the data were processed

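H3K4me3 ChIP-seq was done in A549 and B2B cells with 2 replicates each, and the 4 samples were grouped by their labels. The authors aligned reads to hg38 with Bowtie2 2.4.4, handled alignments with SAMtools 1.13, merged replicates and called peaks with MACS2 2.2.7.1, as the submitters' processing notes and the methods of the study name them. Caller options, the control given to the caller and read numbers are not given in the sources used here, so that depth is unknown. The deposited score is the −log10 q multiplied by 10, without decimals. The fold enrichment deposited by the authors is a ratio of summit pileup to local background. The −log10 p-value and −log10 q-value were deposited by the authors as the caller wrote them. They were used to rank, filter or describe peaks within a list and, for the background, solved together.

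Start sites were the 146322 distinct starts of coding transcripts, and those of lncRNA transcripts, in GENCODE release 44. Peaks within 1 kb of any start site marked a gene. No peak reached past a chromosome end of hg38. Wilson 95% intervals cover counting error only. The genome was indexed with samtools 1.23.1 and read through pysam 0.24.0. Counts were made in Python 3.11.15 with NumPy 2.4.6, pandas 2.3.3 and SciPy 1.17.1 and checked on simulated data against bedtools 2.31.1. Plots used Matplotlib 3.10.9. Of 618 oncogene symbols of the study, 605 matched directly, 7 through an older symbol, and 6 were left out.

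Named were the 10 genes per line with highest −log10 q among those of one line with no peak of the other within 10 kb. Also named were up to 8 members per list and line and the 10 leading genes with different starts. The last were 7 genes that the study draws as browser tracks, in main or supplementary figures. The genes, lists and rules were chosen with earlier results of these data known. The alternatives were a −log10 q of at least 5 or 10, distances of 500 bp or 3 kb, summits, lists of equal length, 1 start per gene and no peak of the other line within 5 kb. Leaving out chromosome ends past the last A549 peak was chosen after seeing the data. Genes on the Y chromosome are not named. Some genes that the rule selects are not reported here.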

Additional observations from a re-analysis of the deposited data

Results flagged for a closer look

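Outside the chromosomes analysed, both lists held peaks on sequences that are not placed in a chromosome, which no comparison above used. A549 held 141 such peaks (0.428% of its list) on 40 sequences, with a median −log10 q of 25.4. B2B held 42 (0.161%) on 13 sequences, with a median of 13.5.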

How the results depend on the processing

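No paired analysis was possible because each line is 1 list pooled over its replicates, and for the same reason no replicate could be left out in turn. Of the values that answer a comparison, 158 stayed within 1.5 times or within their interval and 13 moved, and of the others 432 stayed, 53 moved and 1 reversed. Coding genes marked in A549 only numbered 2296 to 3228, in both lines 10960 to 12186 and in B2B only 275 to 479. LncRNA genes marked in B2B only moved from 201 to 125 with a −log10 q of at least 10 and to 384 with the summit within 1 kb. Histone genes marked in B2B only moved from 8 to 4 with 3 kb, 19 with the summit and 2 with no peak of the other line within 5 kb. With a −log10 q of at least 5, the share of peaks near a coding start moved from 49.9% to 52.5% in A549 and from 73.6% to 76.2% in B2B, and the share of A549-only genes with H3K27ac in B2B from 20.3% to 24.1%. With the A549 list cut to the number of B2B peaks, the A549 median width moved from 863 to 1300 bp, its share near a coding start to 58.7% and the share of A549-only genes with H3K27ac in A549 from 84.8% to 88.1%. With 1 start per gene, the CpG-rich share moved from 67.4% to 73.4% for A549-only genes and from 80.4% to 82.8% for shared genes. The difference between A549-only and B2B-only matrix proteases was 1 gene and reversed to -1 with no peak of the other line within 5 kb. The cause of these moves was not tested. Fewer peaks were used with a higher −log10 q or a cut A549 list, whereas the other settings kept the peaks and changed the rule or the start sites.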
